A study of Mus musculus with 24 samples.

Results

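The jejunal response of male *Ptk6*-/- mice to succinate is described here. It rests on 6 of the 24 poly(A) RNA libraries of the series, 3 from mice on regular drinking water (control) and 3 from mice given succinate, chosen by their labels. Of the 56691 genes in the count table, 18966 were described, those reaching 10 counts in 3 or more of the libraries. The mice were males of 9 to 11 weeks, and control and succinate animals alike carried the germline *Ptk6* disruption on a C57BL/6 background, so the gene was disrupted in every cell type and not in the epithelium alone. Succinate was given at 100 mM in the drinking water for 7 days, and RNA was taken from whole distal jejunum, so epithelium, immune cells, stroma and muscle were measured together. Wild type males and females and *Ptk6*-/- females, each with and without succinate and with 3 libraries per group, make up the remaining libraries and are given beside the *Ptk6*-/- males. The titles number the libraries of a group as biological replicates, and p-values measure the spread between these libraries.

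PTK6 is an intracellular tyrosine kinase of the intestinal epithelium, related to the kinases FRK and SRMS. Tuft cells are rare chemosensory epithelial cells that detect luminal succinate through the receptor SUCNR1, signal through a taste-like cascade that opens the cation channel TRPM5, and release IL-25. IL-25 acts on group 2 innate lymphoid cells, which secrete IL-13, and IL-13 acts back on epithelial progenitors so that tuft and goblet cells increase and a set of epithelial target genes, among them the gasdermins C and RELM-beta (*Retnlb*), is expressed.

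*Ptk6* itself had 37, 61 and 41 counts in the control libraries and 7, 18 and 30 in the succinate libraries of these males. In *Ptk6*-/- females the gene had 16 to 51 counts, and in the wild type libraries 284 to 2405. Every *Ptk6*-/- library thus lay below every wild type library. Total counts were 42378790, 43375676 and 42106773 in the controls and 8080321, 33690435 and 42156956 in succinate libraries 1, 2 and 3, and the other 23 libraries of the series held 22826652 to 52824743. Succinate library 1 was therefore the shallowest of the series, and it stood apart in composition as well. Its 18S ribosomal RNA copy *Rn18s-rs5* took 29.7% of counts, against 4.49% and 0.212% in succinate libraries 2 and 3 and 0.168 to 0.383% in the controls, and an annotated miRNA gene without a symbol took 19.4%, against 0.0094 to 0.642% in the other 5 libraries. It detected 12361 genes at 10 or more counts where the other 5 libraries detected 18484 to 19404. The correlation of log2 CPM across genes, which are not independent replicates, was 0.97 to 0.979 between controls and 0.97 between succinate libraries 2 and 3, but 0.845 and 0.84 between succinate library 1 and these. Short transcripts were over-represented in it: log2 CPM, taken relative to each gene's mean over the series, sloped by -0.149 per doubling of gene length in succinate library 1, by 0.036 and 0.037 in succinate libraries 2 and 3 and by 0.085 to 0.139 in the controls. The main counts and list medians are therefore given with and without this library. Among the remaining libraries, wild type male control 1 was also rich in ribosomal RNA, with 51.2% of 22826652 counts from *Rn18s-rs5*. The wild type male values and the genotype interaction rest on it as 1 of 3 controls, and list counts without it, chosen after seeing the data, are given beside them.

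With all 6 libraries, no gene of the 18966 passed an adjusted p of 0.05 and a 2-fold difference in edgeR's quasi-likelihood test with Benjamini-Hochberg adjustment (0%), and the smallest adjusted p was 0.147, for *Clec4g* and the predicted gene *Gm47428*. At an unadjusted p under 0.05 there were 1470 genes (7.75%), of which 1074 (5.66%) were higher and 396 (2.09%) lower under succinate. This balance turned in some fits: without control library 1 there were 74 higher and 100 lower genes, and with the replicate number as a block 132 and 194. With gene length as an offset 1110 genes (5.85%) passed this p. DESeq2 called 39 genes and voom with sample quality weights 16, 9 of them shared. Without succinate library 1, 2 of 18929 genes (0.0106%) fell, *Clec4g* and *Gm47428*, both at an edgeR quasi-likelihood adjusted p of 0.0119. In that fit 2076 genes (11%) had an unadjusted p under 0.05, 1060 higher (5.60%) and 1016 lower (5.37%). The normalised values (TMM CPM, counts scaled to library size and corrected for composition) of the 3 control and 3 succinate libraries did not overlap for 2161 higher genes (11.4%) and 2347 lower genes (12.4%). The log2 fold change sloped by -0.185 per doubling of gene length over all genes tested and by -0.082 without succinate library 1. Since the genes below did not pass the adjusted test with all 6 libraries, they are given as values.

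The first question was whether the tuft cell circuit responded. The median of the tuft cell receptor and signalling genes lay beside that of all genes. Of 15 tested, 1 had an unadjusted p under 0.05 and was higher and none was lower, beside 5.66% and 2.09% of all genes. Their median log2 fold change was -0.09, beside -0.10 for all genes tested. Without succinate library 1 the median was 0.22, beside -0.03 for all genes, again with 1 gene higher (5.60% of all genes). That gene was *Trpm5*, the channel at the end of the cascade, with 7.41, 8.51 and 13.9 CPM in the controls and 27.3, 18 and 16.7 CPM under succinate. The groups did not overlap for it, and its log2 fold change was 1.04 ± 0.33 (SE, n = 3 per group, edgeR quasi-likelihood adjusted p = 0.6). *Sucnr1*, the succinate receptor, had 17, 20 and 9 counts in the controls and 0, 10 and 29 under succinate. These counts overlapped and were too few to place a difference between the groups. *Plcg2* and *Plcb2*, phospholipases of the cascade, had log2 fold changes of -0.30 ± 0.25 and -0.33 ± 0.31 (SE). In wild type males 4 of 15 genes of this list were higher and 0 lower, with a median of 0.82, and in *Ptk6*-/- females 12 of 17 were higher and 0 lower, with a median of 2.70. Beside these stand 2.74% higher and 1.33% lower of all genes in wild type males, and 4.81% and 5.84% in *Ptk6*-/- females. Without wild type male control 1, 5 of the 15 were higher in wild type males, with a median of 0.80.

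Of the 22 tested genes of tuft cell identity and structure, 3 were higher at an unadjusted p under 0.05 and none was lower, beside 5.66% and 2.09% of all genes. The median log2 fold change was 0.10 (0.28 without succinate library 1). *Dclk1*, the kinase used as the standard tuft cell marker, had 5.35, 4.73 and 4.24 CPM in the controls and 2.32, 2.97 and 5.6 CPM under succinate. One succinate library lay above the controls and the others below, and the log2 fold change was -0.34 ± 0.38 (SE). *Pou2f3*, the transcription factor on which tuft cells depend, had 63, 44 and 25 counts against 0, 26 and 76. *Irag2*, a membrane protein enriched in tuft cells, was likewise scattered, at 6.83, 11.8 and 5.73 CPM against 3.78, 6.48 and 14.8 CPM. The 3 higher members were *Nrgn* (1.98, 2.87 and 2.28 CPM against 29.6, 4.03 and 6.78 CPM), *Matk*, a kinase that restrains Src family kinases (3.25, 4.18 and 3.2 CPM against 19.5, 4.65 and 6.28 CPM), and *Krt18*, a keratin that other epithelial cells also make (169, 183 and 170 CPM against 611, 227 and 220 CPM). In all of these the groups did not overlap and succinate library 1 was highest. In wild type males 11 of the 23 tested genes of this list were higher, with a median of 0.80 (12 and 0.97 without wild type male control 1), and in *Ptk6*-/- females 18 of 23, with a median of 2.22. Higher at that p were 2.74% of all genes in wild type males and 4.81% in *Ptk6*-/- females. The 13 tuft cell effectors and enzymes of eicosanoid synthesis had none at that level in *Ptk6*-/- males, with a median of 0.03, and *Il17rb*, the IL-25 receptor, had 2.51, 1.85 and 1.43 CPM in the controls against 5.52, 2.43 and 2.74 CPM. In bulk tissue, fewer cells of a type and less RNA per cell cannot be told apart.

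*Il25*, the tuft cell cytokine, had 0 counts in all 6 libraries, while wild type males on succinate had 6, 9 and 9 counts and *Ptk6*-/- females on succinate 3, 61 and 28. *Il13* had 3, 4 and 0 counts in the controls and 0 in each succinate library. In wild type males it had 0, 0 and 5 counts in the controls and 11, 0 and 7 under succinate, and in *Ptk6*-/- females 0 in each control and 27, 175 and 37 under succinate. *Il4* had 3, 5 and 4 counts against 0, 1 and 6. None of the 3 cytokines reached the minimum for testing in these males. The 13 tested genes of type 2 cytokines and their receptors held none with an unadjusted p under 0.05, by edgeR in the fit with all libraries or in that without succinate library 1, and had median log2 fold changes of -0.17 and 0.01. The receptor of IL-33, *Il1rl1*, had 13.8, 16.6 and 22.8 CPM in the controls and 5.23, 9 and 16.5 CPM under succinate, and the receptor chain *Il4ra*, which is needed for the IL-13 response, 101, 119 and 127 against 79.9, 104 and 98.2 CPM. Among 5 tested mast cell genes, *Mcpt1*, a protease of mucosal mast cells, was the 1 that was higher, at 2.96, 3.54 and 3 CPM in the controls and 4.36, 4.08 and 13.7 CPM under succinate, with most of the difference in succinate library 3 (edgeR unadjusted p = 0.039). Of the 5, 2 were higher without succinate library 1 and 0 with gene length as an offset. Higher among all genes were 5.66% with all libraries, 5.60% without succinate library 1 and 4.59% with the offset.

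The 19 tested epithelial targets of IL-13 had a median log2 fold change of 0.29 in these males, with 1 higher and 1 lower at an unadjusted p under 0.05, beside 5.66% and 2.09% of all genes. Without succinate library 1 their median was 0.44, with 5 higher and 1 lower, beside 5.60% and 5.37% of all genes. In wild type males the same list had a median of 2.07 with 14 of 19 higher and none lower (1.87 and 13 without wild type male control 1), and in *Ptk6*-/- females 3.30 with 15 of 18 higher and 1 lower (*B3galt5*, -2.75). Beside these stand 2.74% higher and 1.33% lower of all genes in wild type males, and 4.81% and 5.84% in *Ptk6*-/- females. *Gsdmc2*, a pore-forming gasdermin, had 44.8, 38.4 and 37.1 CPM in the controls and 37.2, 35.8 and 73.2 CPM under succinate. Of the succinate libraries only the third exceeded the controls. Its log2 fold change was 0.29 ± 0.31 (SE) here, 1.99 in wild type males and 4.35 in *Ptk6*-/- females, where it rose with an edgeR quasi-likelihood adjusted p of 0.0409 as 1 of 17 genes called there, all higher (0.0879% of those tested). The paralogs *Gsdmc3* and *Gsdmc4*, whose near-identical copies may share reads, had log2 fold changes of -0.02 and 0.44 here, 2.09 and 2.26 in wild type males and 4.17 and 4.03 in *Ptk6*-/- females. Without succinate library 1 the value for *Gsdmc4* was 0.71, and *Gsdmc* itself had 112, 109 and 107 counts against 0, 79 and 227.

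*Pla2g4c*, a cytosolic phospholipase A2 induced by IL-13, had 5.01, 12.7 and 2.83 CPM in the controls and 20.9, 2.97 and 41.7 CPM under succinate. Succinate library 2 lay within the controls and the others above them, and the log2 fold change was 1.68 ± 0.91 (SE), against 6.88 in wild type males and 7.22 in *Ptk6*-/- females. *Retnlb*, the goblet cell product RELM-beta, had 14, 11 and 8 counts against 0, 6 and 45. Of the small proline-rich proteins, which strengthen the epithelial surface, *Sprr2a1*, *Sprr2a2* and *Sprr2a3* were the 3 of 19 tested IL-13 targets with separate and higher succinate values. *Sprr2b* overlapped between groups (log2 fold change 0.23), and *Chil3*, given below, was the lower member. Among all genes 11.4% were separate and higher and 12.4% separate and lower. *Sprr2a3* had 99.4, 148 and 190 CPM in the controls and 259, 217 and 310 CPM under succinate, a log2 fold change of 0.85 ± 0.30 (SE, unadjusted p = 0.0239) that was 0.85 without succinate library 1. *Sprr2a1* and *Sprr2a2*, annotated as overlapping on the same strand so that their counts are not independent, had log2 fold changes of 0.92 and 0.90. Of the 5 tested members of this family, 1 was higher at an unadjusted p under 0.05 with all libraries and 4 without succinate library 1, beside 5.66% and 5.60% of all genes. The family's median log2 fold changes were 0.85 and 0.82.

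**Figure D1:**
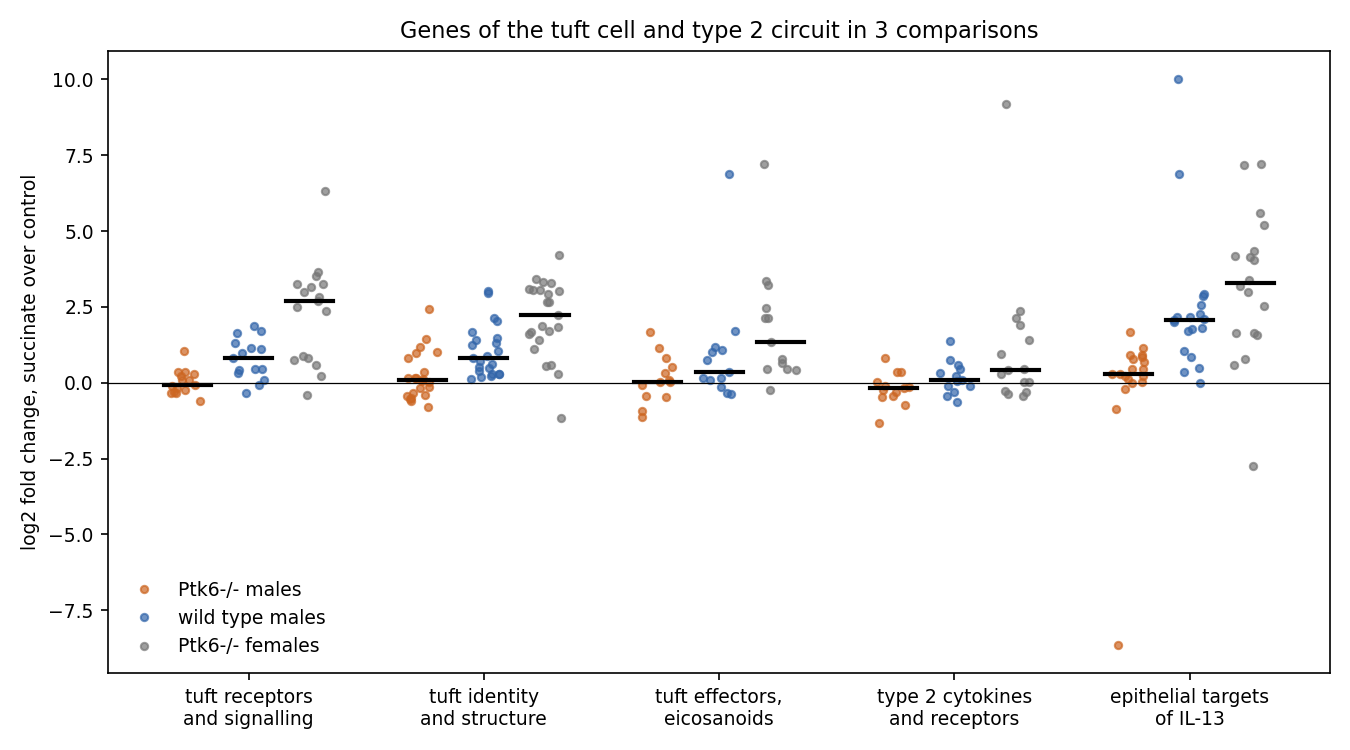
Log2 fold changes under succinate of the tuft cell, type 2 cytokine and IL-13 target genes in Ptk6-/- males, wild type males and Ptk6-/- females. Each point is a gene of the list named on the horizontal axis and the black bars mark list medians. The IL-13 target median was 0.29 in Ptk6-/- males, 2.07 in wild type males and 3.30 in Ptk6-/- females.

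Whether these effects differed between genotypes or sexes was tested as an interaction, in which a negative value means a smaller log2 effect in *Ptk6*-/- males. Against wild type males, no gene of 20340 passed the adjusted test (0%, edgeR quasi-likelihood), 772 (3.80%) had an unadjusted p under 0.05 and DESeq2 called 63. Of the IL-13 targets, 8 had a lower effect at an unadjusted p under 0.05 and 0 a higher one, beside 1.66% and 2.13% of all genes. These counts were 8 and 0 without wild type male control 1 and 9 and 0 without succinate library 1. Among them the interaction was -1.70 for *Gsdmc2* (unadjusted p = 0.00734), -2.09 for *Gsdmc3* and -1.81 for *Gsdmc4*, and for *Pla2g4c*, a phospholipase, -5.20 (unadjusted p = 0.00286), each with an edgeR adjusted p of 0.992. The IL-13 target list also holds *Chil3*, which follows a split of libraries given below. Its gasdermin C and *Sprr2a* members may share reads, so the genes counted are not independent. For tuft cell identity genes, 5 had a lower effect and 0 a higher one (6 and 0 without wild type male control 1, 4 and 0 without succinate library 1). None of the tuft receptor and signalling genes reached that level in any of these fits, and their median was -0.88. Against *Ptk6*-/- females, again no gene of 20471 passed (0%), 1458 (7.12%) had an unadjusted p under 0.05, 853 higher (4.17%) and 605 lower (2.96%), and DESeq2 called 175. Of the lists, 12 of the tuft receptor genes had a lower and 0 a higher effect in males (11 and 0 without succinate library 1). The tuft identity genes had 14 lower and 1 higher (16 and 1 without that library), and the IL-13 targets 12 lower and 1 higher (13 and 1). The smallest adjusted p there was 0.104 (edgeR quasi-likelihood), for *Gsdmc2* (-4.07), *Gsdmc3* (-4.20) and *S100a8*, and 0.108 for *Gsdmc4* (-3.60), the cytosolic malic enzyme gene *Me1* (-3.91) and the calpain gene *Capn13* (-3.20). The *Ptk6*-/- male libraries are shared by both interactions.

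Of 24 cell cycle genes, 0 had an unadjusted p under 0.05 in edgeR, and their median was -0.08. *Mki67*, *Pcna* and *Mcm2*, which mark dividing cells, had log2 fold changes of 0.12, -0.27 and -0.04. Of the kinases related to PTK6, *Frk* had a log2 fold change of -0.14 and *Srms* was below the minimum for testing, while *Il22ra1*, the IL-22 receptor, had 101, 73.9 and 108 CPM against 18.9, 84.6 and 45.3 CPM.

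The smallest p-values in the fit with all 6 libraries belonged to lower genes, several of them known from neutrophils, macrophages or endothelium. Of 18966 genes, 16 had 0 counts in all 3 succinate libraries and at least 10 in all 3 controls, and 0 genes had the opposite pattern. These are raw counts, and the low depth of succinate library 1 makes the first pattern easier to meet and the second harder. In succinate libraries 2 and 3 alone, an alternative added after seeing the data, the numbers were 18 and 1. *Clec4g*, a C-type lectin of sinusoidal endothelium, had 407, 645 and 396 counts in the controls and 0, 0 and 0 under succinate. It was at least 272-fold lower, taking 3 counts over the succinate group as the limit that a count of 0 allows, a limit that covers counting error only. *S100a8*, a calcium-binding protein of neutrophils, had 168, 234 and 117 counts against 0 in each succinate library (at least 97.5-fold lower), and *Marco*, a macrophage scavenger receptor, 84, 108 and 80 against 0 (at least 51.1-fold lower). *Ngp*, a neutrophil granule protein, had 84, 88 and 54 counts against 0 (at least 42.4-fold lower), and *Chil3*, a chitinase-like macrophage product, 49, 89 and 52 against 0 (at least 35.7-fold lower). For all of these the groups were fully separate, with an edgeR quasi-likelihood adjusted p of 0.147 for *Clec4g* and 0.6 for the others.

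The promoters of 3 of these genes follow, from 250 bases before to 50 after the start as RefSeq places it. *S100a8*, *Marco* and *Clec4g* are shown because their transcripts had no counts under succinate. They are on build GRCm38.p6, whereas the count files use GRCm39, on which *Clec4g* lies on chromosome 8 from 3757064 to 3768653, *S100a8* on chromosome 3 from 90576285 to 90577342 and *Marco* on chromosome 1 from 120402267 to 120432753. Capitals mark GAGGAA, the core that the myeloid factor PU.1 binds, searched on both strands (TTCCTC where it lies on the other strand).
S100a8 (chr3:90668821-90669120, plus strand): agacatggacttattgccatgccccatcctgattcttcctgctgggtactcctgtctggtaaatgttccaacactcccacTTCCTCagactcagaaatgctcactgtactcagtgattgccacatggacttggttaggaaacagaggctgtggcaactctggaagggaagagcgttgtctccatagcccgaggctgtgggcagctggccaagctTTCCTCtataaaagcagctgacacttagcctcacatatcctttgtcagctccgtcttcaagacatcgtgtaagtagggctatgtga
Marco (chr1:120504975-120505274, minus strand): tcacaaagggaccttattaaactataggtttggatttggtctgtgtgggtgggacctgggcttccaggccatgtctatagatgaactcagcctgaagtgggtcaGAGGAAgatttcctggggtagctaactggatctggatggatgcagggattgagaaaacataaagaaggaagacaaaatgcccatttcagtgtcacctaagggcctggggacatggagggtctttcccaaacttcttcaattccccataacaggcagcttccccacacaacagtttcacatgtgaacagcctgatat
Clec4g (chr8:3720602-3720901, minus strand): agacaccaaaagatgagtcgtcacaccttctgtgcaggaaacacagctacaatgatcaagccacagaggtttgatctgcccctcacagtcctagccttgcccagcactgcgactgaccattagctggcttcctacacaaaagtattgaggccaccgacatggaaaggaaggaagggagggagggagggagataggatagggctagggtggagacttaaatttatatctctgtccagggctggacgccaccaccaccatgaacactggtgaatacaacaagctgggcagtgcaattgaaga
*S100a8* held the motif at 2 places and *Marco* at 1, and *Clec4g* held none in this window. Over 32851 RefSeq promoters of the same length, 28.3% held it, and of the 8 matched among the 12 lower genes named here 3 did (*S100a8*, *Marco* and *Wfdc17*), as did 2 of the 9 matched higher genes. Searched in the same way, TTCNNNGAA, a STAT motif, was in 1 of the 8 (*Chil3*) and 8.3% of all promoters, and the STAT6 form of that motif, with a gap longer by 1 base, in 0 of the 8 and 6.95% of all. Neither was in any of the 9 higher genes. A match is a description of the letters and not evidence of binding.

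The other lower genes named by the same rule were *Wfdc17*, *Ccl7*, *Ccl4*, *Gdf15*, *Gpr182*, *Srcap* and *Igkv13-84*. *Wfdc17*, a secreted macrophage protein, had 573, 705 and 422 counts in the controls and 0, 9 and 50 under succinate, a log2 fold change of -4.24 ± 0.69 (SE). The monocyte chemokine *Ccl7* had 221, 260 and 141 counts against 0, 18 and 11 (-3.64 ± 0.62), and the chemokine *Ccl4* 257, 347 and 210 against 6, 33 and 34 (-2.41 ± 0.45). *Gdf15*, a stress-induced cytokine of the TGF-beta family, had 128, 257 and 160 counts against 0, 14 and 21 (-3.28 ± 0.61), and the endothelial receptor *Gpr182* 365, 309 and 230 against 6, 54 and 97 (-1.71 ± 0.33). None of the succinate libraries reached the lowest control in any of these. *Gm47428*, a predicted gene on chromosome 13 from 74552302 to 74554856 (GRCm39) that the rule leaves out for its name and that was added after its values were seen, had 483, 306 and 258 counts against 0, 5 and 8 (-5.52 ± 0.52, edgeR adjusted p = 0.147). *Srcap*, a chromatin remodeller, had 4887, 3536 and 3755 counts against 54, 247 and 968, but it overlaps *Gm42715* on the same strand, which held up to 4328 counts, so its value is uncertain. The neutrophil list, of which 4 of 8 genes could be tested, had 2 lower genes, *S100a8* and *Retnlg*. Both had 0 counts in every succinate library and reached the minimum for testing through the controls alone. The filter thus favours lower genes here, and the count cannot show a direction of the list. *Csf3r*, the G-CSF receptor, had 152, 61 and 92 counts against 13, 77 and 116. Of 15 macrophage and dendritic cell genes 1 was lower, with a median of -0.38 (2 lower and -0.32 without succinate library 1), beside 2.09% lower of all genes (5.37% without that library).

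The same transcripts split the other libraries of the series in a way that does not follow treatment. After the values were seen, 21 genes were found whose counts in 8 libraries, the 3 *Ptk6*-/- male controls and 5 of the wild type males (controls 2 and 3 and succinate 1, 2 and 3), were all above those in the remaining 16 libraries (0.037% of the count table). These counts were not scaled for depth, and the 16 include both libraries rich in ribosomal RNA. In CPM with TMM factors, an alternative added after seeing the data, 18 of the 21 still separated, while *Spic*, *Saa3* and *Oit3* did not. The 16 are the 3 *Ptk6*-/- male succinate libraries, wild type male control 1 and all 12 female libraries. One of these, wild type female succinate 2, went against its label in part, with 315 *Kdm5d*, 269 *Uty* and 772 *Ddx3y* counts (Y-linked, at most 18 in the 11 other female libraries), and held 94321 counts of the cardiac actin *Actc1* (at most 1429 in the others). Without it, chosen after seeing the data, 22 genes separated the 8 libraries from 15, all 21 among them. The 21 genes include *Clec4g* (382 to 645 counts in the 8 libraries and at most 5 in the 16), *S100a8* (112 to 234 and at most 25), *Marco* (63 to 136 and at most 12), *Ngp* (46 to 88 and at most 8), *Wfdc17* (422 to 705 and at most 132) and *Ccl4* (210 to 347 and at most 72). In all, 9 of the 12 lower genes named above are among them, in counts and in CPM, with the neutrophil granule genes *Mpo* and *Elane* and the macrophage gene *Cd5l*. Of the other members, *Saa3* and *Ftl2-ps* had log2 fold changes of only -0.16 and -0.65 between the *Ptk6*-/- male groups. GAGGAA was in 9 of the 15 promoters matched for the 21 genes, TTCNNNGAA in 1 and its STAT6 form in 2 (*Mpo* and *Cd5l*). Over all promoters the shares were 28.3%, 8.3% and 6.95%. The 21 genes were picked from these same counts, and whether the motifs bear on them was not tested. Wild type males on succinate held these transcripts at the level of their controls 2 and 3, and all female libraries, on water or succinate, held fewer. Within the *Ptk6*-/- males the split runs exactly between control and succinate, so an effect of succinate and whatever sets the 8 libraries apart cannot be told apart in these libraries. In the genotype interaction *S100a8* and *Gm47428* had the smallest edgeR quasi-likelihood adjusted p, 0.0749, and *Clec4g* 0.238, each with the lower effect in *Ptk6*-/- males. *Srcap* and the immunoglobulin gene *Igkv13-84* were the named lower genes that did not follow the split, and *Gpr182* followed it in CPM and not in counts. *Srcap* also had 3108 counts in wild type male succinate library 1 and 4533 in *Ptk6*-/- female control 2.

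**Figure D2:**
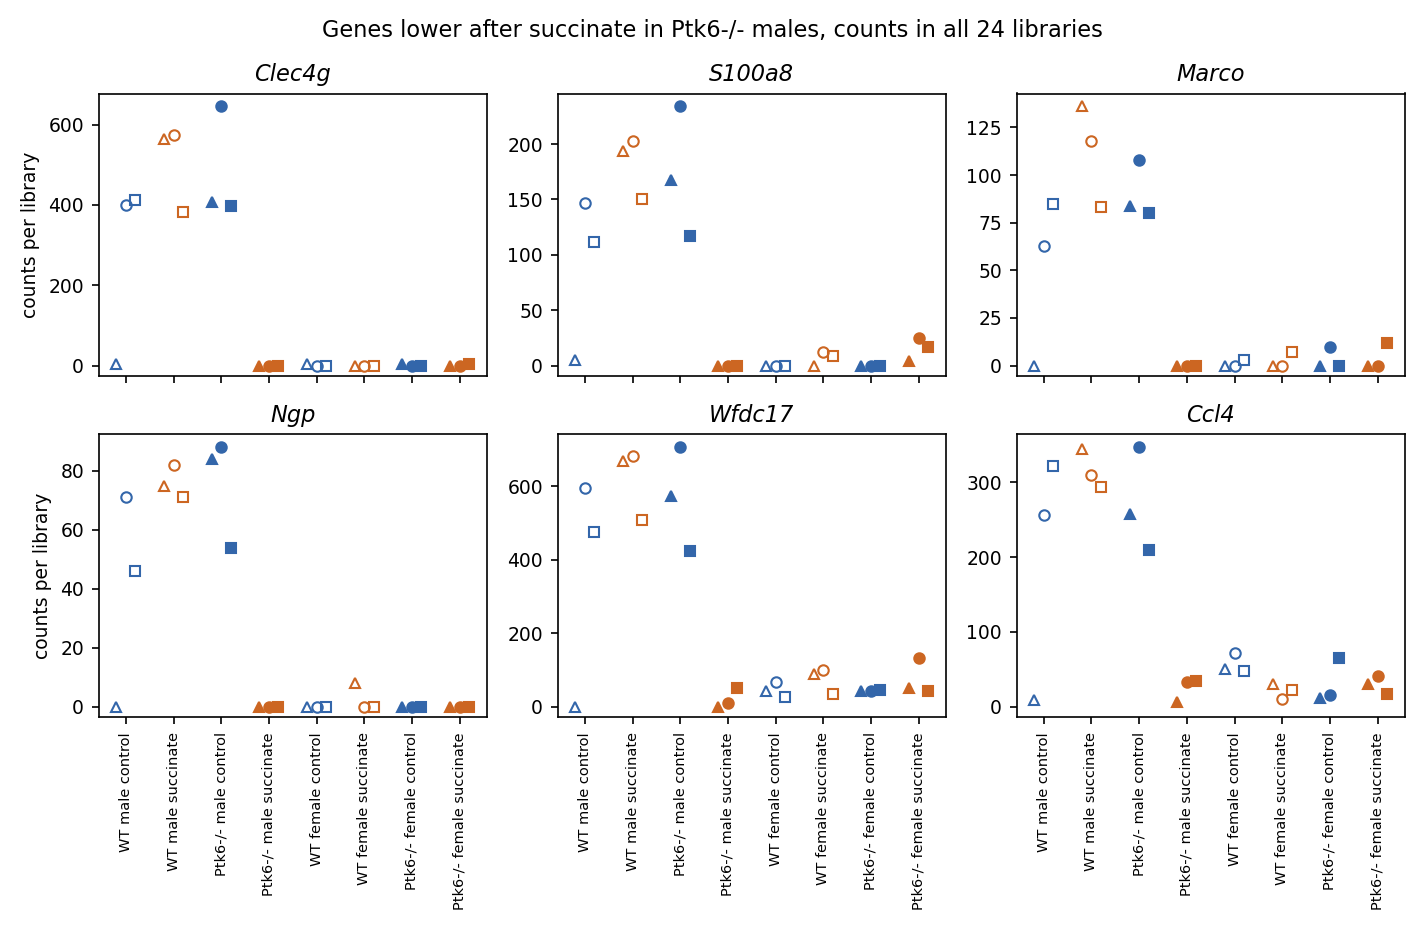
Counts per library (linear axis) of 6 lower genes in all 24 libraries, grouped by genotype (WT, wild type, open; Ptk6-/- filled), sex and treatment (blue, control; orange, succinate). Triangles, circles and squares are replicates 1, 2 and 3. Clec4g lies at 382 to 645 counts in 8 male libraries and at 0 to 5 in the other 16, including all 3 Ptk6-/- male succinate libraries.

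Among higher genes, *AA467197* had the smallest p. It encodes a small protein (also known as NMES1) and lies on chromosome 2 from 122478906 to 122483111 (GRCm39). It falls outside the rule for its clone-like symbol and was added after its values were seen. It had 24, 27.7 and 32.1 CPM in the controls and 65.3, 65.3 and 87.2 CPM under succinate, 27.9 ± 4.03 against 72.6 ± 12.6 CPM (SD, n = 3). All succinate libraries were above all controls, and the log2 fold change was 1.38 ± 0.22 (SE, edgeR quasi-likelihood adjusted p = 0.6, and 0.0931 without succinate library 1). It was higher in wild type males (2.52) and *Ptk6*-/- females (3.68) as well, with interactions of -1.13 and -2.31 at unadjusted p of 0.104 and 0.00282. *Duoxa2*, the maturation factor of the hydrogen peroxide-producing dual oxidase DUOX2, had 102, 108 and 189 CPM in the controls and 256, 381 and 264 CPM under succinate, a log2 fold change of 1.17 ± 0.33 (SE). Its partner *Duox2* overlapped between the groups, at 303, 342 and 577 CPM against 230, 696 and 520 CPM.

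*Ubd*, the ubiquitin-like modifier FAT10, had 18.2, 6.39 and 14.7 CPM in the controls and 65.9, 69.2 and 22.1 CPM under succinate (log2 fold change 1.99 ± 0.54, SE). In wild type males and *Ptk6*-/- females its log2 fold change had the opposite sign, -1.50 and -4.06, and the interactions were 3.49 (edgeR quasi-likelihood adjusted p = 0.651) and 6.03 (adjusted p = 0.132). *Plet1*, an epithelial surface protein, had 3.48, 2.27 and 7.5 CPM against 12.8, 15.9 and 18.2 CPM (1.83 ± 0.45), and its effect in *Ptk6*-/- females was -2.29, an interaction of 4.11. *Slc15a2*, the high-affinity peptide transporter, had 1.32, 0.322 and 1.98 CPM against 4.07, 11.1 and 6.14 CPM (2.59 ± 0.68). *Ppih*, a cyclophilin of the spliceosome, had 1.37, 1.93 and 1.88 CPM against 5.23, 5.05 and 4.19 CPM (1.47 ± 0.33), with an effect of -1.32 in wild type males and the smallest p of the genes with a more positive effect than in wild type males (interaction 2.79, edgeR adjusted p = 0.296). *N4bp2os*, named as the opposite strand of *N4bp2* and so uncertain unless reads were assigned by strand, was at 4.56 ± 0.138 CPM in the controls and 8.42 ± 0.756 CPM under succinate (SD, n = 3). In each of these the succinate libraries were all above the controls, with adjusted p of 0.6.

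**Figure D3:**
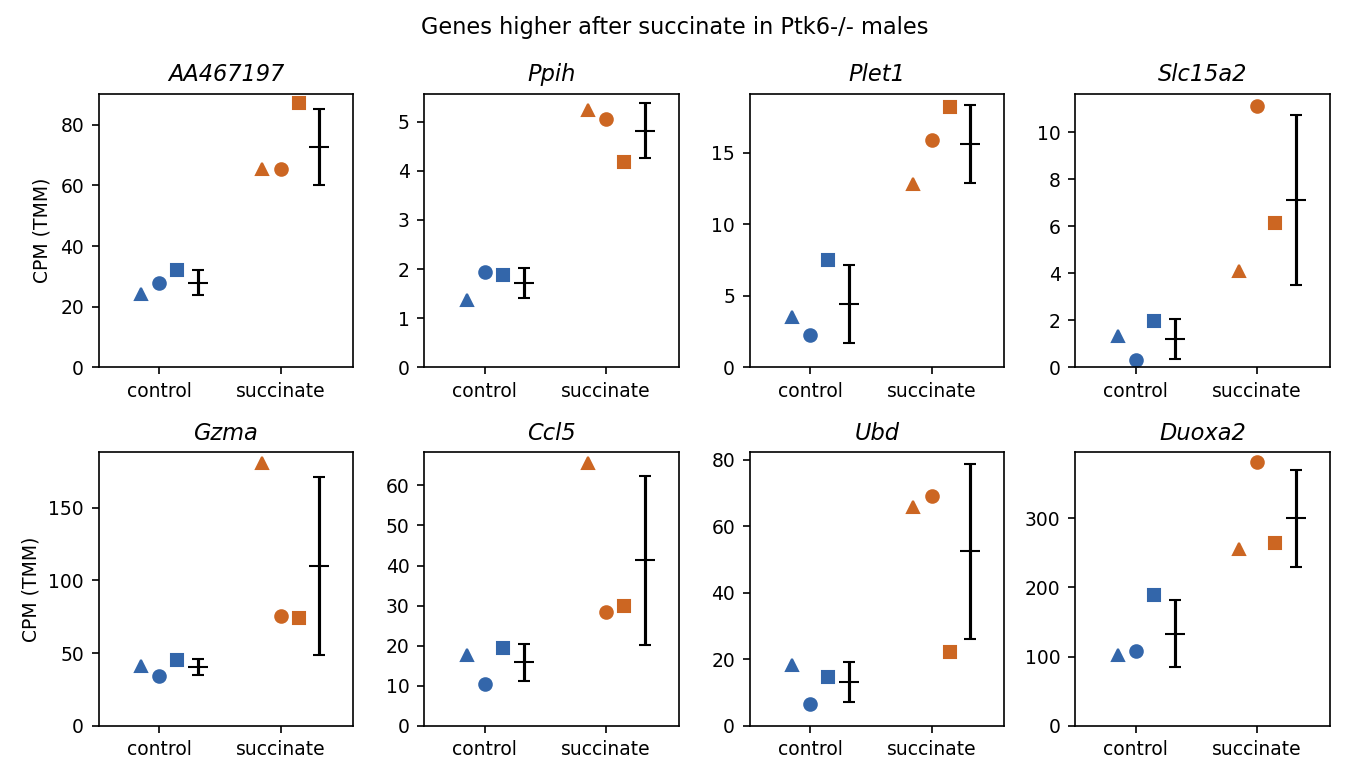
TMM-normalised CPM (linear axis from 0) of 8 higher genes in each Ptk6-/- male library, with triangles, circles and squares for replicates 1, 2 and 3 and bars for the mean ± SD (n = 3). AA467197 lies at 24 to 32.1 CPM in the controls and 65.3 to 87.2 CPM under succinate.

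Transcripts of intraepithelial T cells, the cytotoxic lymphocytes that reside between epithelial cells, were among the higher genes. Of 18 tested, 5 were higher at an unadjusted p under 0.05, both with all libraries and without succinate library 1, and none was lower, with medians of 0.15 and 0.39. Of all genes 5.66% and 5.60% were higher at that p, and with gene length as an offset 3 of the 18 were higher, beside 4.59% of all genes. The protease granzyme A (*Gzma*) had 40.9, 34.4 and 45.1 CPM in the controls and 181, 75.2 and 74.4 CPM under succinate (log2 fold change 1.45 ± 0.38, SE). The chemokine *Ccl5* had 17.7, 10.5 and 19.3 CPM against 65.6, 28.4 and 29.9 CPM, and the surface receptor *Cd7* 19.1, 13.8 and 21.8 against 29.3, 29.5 and 27.4 CPM. The T cell receptor subunit *Cd3g* had 7.66, 8.96 and 9.7 CPM against 26.1, 14.8 and 10.9 CPM. All of these separated the groups. *Cd8a*, the coreceptor of most of these cells, did not, at 14.8, 12.9 and 17.3 CPM against 2.9, 18.8 and 18.8 CPM. In *Ptk6*-/- females 9 of the 18 were lower and 0 higher, beside 5.84% and 4.81% of all genes. The effect was more positive in *Ptk6*-/- males than in those females for 11 genes with or without succinate library 1 (4.17% of all genes with it), among them *Ccl5* (3.22) and *Cd7* (2.64). Against wild type males it was more positive for 4 genes, beside 2.13% of all genes (3 without wild type male control 1 and 5 without succinate library 1), among them *Cd7* (1.39) and *Gzma* (1.51). *Cd5*, a T cell receptor regulator outside the list, had 1.86, 1.85 and 1.53 CPM against 3.48, 2.35 and 3.21 CPM, and an interaction with sex of 2.51.

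Antigen presentation by MHC class II had 5 of 10 genes higher and none lower, with a median of 0.64 (6 higher and 0.39 without succinate library 1), beside 5.66% and 5.60% higher of all genes in these fits. *Cd74*, the invariant chain, had a log2 fold change of 1.23 ± 0.48 (SE), *H2-Aa* 0.71 ± 0.28, *H2-DMa* 0.91 ± 0.36 and *H2-Eb1* 0.90 ± 0.37. *H2-Eb1* had 297, 296 and 313 CPM in the controls and 893, 389 and 413 CPM under succinate, so the difference outside succinate library 1 was smaller. For 7 of the 10 (6 without succinate library 1) the effect was more positive than in *Ptk6*-/- females, where the list's median was -1.02. With all libraries 4.17% of all genes had a more positive effect in this comparison. With gene length as an offset 2 of the 10 were higher, beside 4.59% of all genes. In wild type males 2 of the 10 were higher and 0 lower, beside 2.74% and 1.33% of all genes. Against wild type males the effect was more positive for 1 gene and less positive for 0, beside 2.13% and 1.66% of all genes. These interaction counts were 0 and 2 without wild type male control 1 and 0 and 0 without succinate library 1.

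Epithelial defence genes had 4 higher and 1 lower of 22, with a median of 0.34 (4, 2 and 0.37 without succinate library 1), beside 5.66% higher and 2.09% lower of all genes (5.60% and 5.37% without that library). Besides *Duoxa2* they were led by *Tlr2*, the receptor of bacterial lipoproteins, with 3.26, 2.55 and 4.16 CPM in the controls and 7.26, 14 and 5.37 CPM under succinate, and by the acute-phase protein *Saa1*, with 6.11, 12.1 and 21.4 CPM against 328, 47 and 25.3 CPM. The paralog *Saa2* was at 34, 34 and 40 counts against 0, 12 and 10 and was the lower member. The antimicrobial lectins *Reg3g* and *Reg3b* had log2 fold changes of 0.87 ± 0.50 and 0.95 ± 0.53 (SE) with overlapping groups, against -4.52 and -3.96 in *Ptk6*-/- females, interactions of 5.35 and 4.87. *Duoxa2* was instead higher in those females, at 4969, 7191 and 13698 counts in the controls and 31810, 63037 and 44530 under succinate. In wild type males *Duoxa2* had 854, 7266 and 6878 counts against 11018, 26586 and 36964. *Casp4*, the inflammatory caspase that senses lipopolysaccharide, had 29.5, 25.5 and 41.2 CPM against 34.6, 57.6 and 40 CPM, an effect of 0.47, with -1.11 in wild type males and -2.66 in *Ptk6*-/- females. Its interaction with sex was 3.10 (edgeR quasi-likelihood adjusted p = 0.108), the smallest p among genes with a more positive effect in males, and that with genotype 1.59. Of 29 interferon-stimulated genes 1 was higher and none lower, with a median of -0.05 (3 higher and 0.11 without succinate library 1). In *Ptk6*-/- females 14 of them were lower and 1 higher, beside 5.84% and 4.81% of all genes. The effect was more positive in *Ptk6*-/- males than in those females for 10 genes and less positive for 0, beside 4.17% and 2.96% of all genes (13 and 0 without succinate library 1). Against wild type males it was more positive for 3 and less positive for 0, beside 2.13% and 1.66% of all genes. The counts against wild type males were 6 and 0 without succinate library 1 and 0 and 0 without wild type male control 1.

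In the secretory lineages, 3 of 22 goblet cell genes were higher and 2 lower, with a median of 0.11 (3, 2 and 0.05 without succinate library 1), beside 5.66% higher and 2.09% lower of all genes (5.60% and 5.37% without that library). *Muc2*, the gel-forming mucin, had a log2 fold change of -0.23 ± 0.35 (SE). *P2ry4*, a nucleotide receptor, was lower at 4.96, 6.83 and 7.36 CPM in the controls and 3.48, 3.7 and 1.87 CPM under succinate (-1.11 ± 0.37), as was *Ern2*, the goblet cell stress sensor IRE1-beta (-0.99 ± 0.35). *Klk1*, a kallikrein, was higher at 67.6, 64.3 and 72 CPM against 110, 88.4 and 105 CPM, and the short secreted peptide *Spink4* was at 179, 178 and 218 CPM in the controls against 296 and 291 CPM in succinate libraries 2 and 3. *Spink4* and *Tff3*, the trefoil peptide, had log2 fold changes of 2.27 and 2.00 with succinate library 1 and 0.61 and 0.56 without it. Of 21 enteroendocrine genes 4 were higher, the hormones *Sst*, *Pyy*, *Gip* and *Sct* (3 genes without succinate library 1), and none was lower. The median of this list was 0.03, and 0.22 without succinate library 1. With gene length as an offset 2 enteroendocrine genes were higher and 0 lower, and 1 goblet cell gene was higher and 1 lower. Of all genes 4.59% were higher and 1.26% lower with the offset. *Sst*, somatostatin, had 16.2, 23.7 and 18.4 CPM against 62.1, 29.4 and 31.4 CPM, and *Pyy*, peptide YY, 8.58, 10.9 and 12.5 CPM against 129, 17.5 and 15.2 CPM. Alpha-defensins had a median of 1.21 with all libraries and 0.09 without succinate library 1, with 0 of 27 at an unadjusted p under 0.05 in either fit.

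The lists with the most higher genes were those of short, abundant transcripts. Of 86 cytosolic ribosomal protein genes 58 were higher and none lower, with a median of 1.24, and of 76 respiratory chain subunits 52 were higher and none lower, with a median of 1.20. Without succinate library 1 the medians were 0.38 and 0.44, with 59 and 47 genes higher, and with gene length as an offset 1.26 and 1.12, with 35 and 31 genes higher. The shares of all genes that were higher in these fits were 5.66%, 5.60% and 4.59%. *Rps27* had 44.8, 51.8 and 33.8 CPM in the controls and 168, 74.6 and 75.5 CPM under succinate, and *Atp5j*, a subunit of ATP synthase, 51.7, 68.6 and 69.1 against 197, 91.6 and 111 CPM. Succinate library 1 was the highest for both, and libraries 2 and 3 were also above every control. The list made for replication histones, whose transcripts lack a poly(A) tail, had 32 of 58 higher with a median of 2.83, but 7 higher and 1 lower of 50 with a median of 0.40 without succinate library 1. It was matched by symbol and is not limited to such histones: it also took in *H19*, which was below the minimum for testing. *H3c6* had 5, 4 and 10 counts in the controls and 93, 33 and 17 under succinate. The mitochondrial ribosomal RNAs *mt-Rnr1* and *mt-Rnr2* had log2 fold changes of 2.06 and 2.39, and 1.03 and 1.07 without succinate library 1. Depth, ribosomal RNA share and the length slope of succinate library 1 move with these groups, and their part in the values was not tested beyond the fits given.

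**Figure D4:**
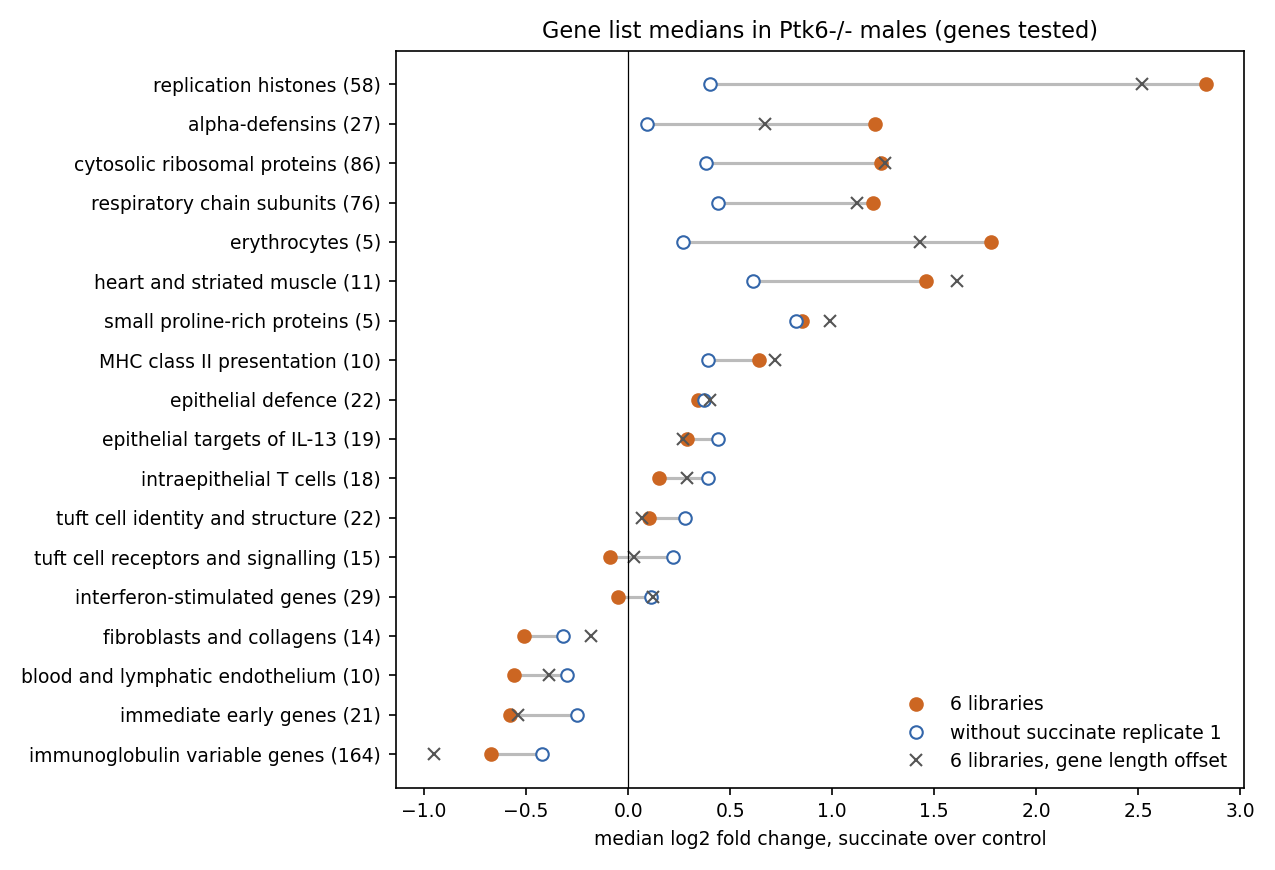
Median log2 fold change under succinate of gene lists selected from the 62, in Ptk6-/- males. Filled circles are all 6 libraries, open circles the fit without succinate library 1 and crosses the gene length offset. The number of genes tested is in brackets. The replication histone list, matched by symbol, moves from 2.83 to 0.40 and the ribosomal proteins from 1.24 to 0.38, while the IL-13 targets are at 0.29 and 0.44.

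Some stromal and endothelial genes were lower, mostly not past the unadjusted threshold. Of 14 fibroblast and collagen genes 2 were lower and none higher, with a median of -0.51 (5 lower and -0.32 without succinate library 1), and with a length offset 1 was lower with a median of -0.18. The shares of all genes that were lower in these fits were 2.09%, 5.37% and 1.26%. *Col6a3*, a chain of collagen VI, had 94.4, 62 and 67.2 CPM in the controls and 34, 36.9 and 46.5 CPM under succinate (log2 fold change -0.93 ± 0.24, SE), and *Pdgfrb*, the receptor of pericytes and fibroblasts, 30.5, 32.9 and 36.4 against 14.8, 22.6 and 26.5 CPM. Of 10 blood and lymphatic endothelial genes 1 was lower (3 without succinate library 1), with medians of -0.56 and -0.30. It was *Flt1*, a VEGF receptor, with 17.7, 17.3 and 20.9 CPM against 9.87, 11.3 and 12.8 CPM. No succinate library of these 3 genes reached a control. Gut smooth muscle genes summed to 2670 to 3910 CPM in the controls and 3940 to 5500 CPM under succinate, with 1 of 12 higher (beside 5.66% of all genes) and none lower and a median of 0.47 (0.26 without succinate library 1). The part of this difference in the stromal and epithelial values was not tested.

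Immediate early genes, which are switched on within minutes of a stimulus, had 5 lower and 1 higher of 21, with a median of -0.58 (4 lower and none higher, and -0.25, without succinate library 1). Of all genes 2.09% were lower and 5.66% higher, and without that library 5.37% and 5.60%. *Nr4a1*, an orphan nuclear receptor, had 5.64, 9.65 and 8.3 CPM in the controls and 1.74, 4.3 and 4.29 CPM under succinate, and the transcription factor *Egr1* 15.8, 50.6 and 23.6 against 2.61, 10.5 and 14.6 CPM. *Fosb* overlapped between groups, at 6.71, 18.6 and 22.4 CPM against 4.36, 6.59 and 8.61 CPM. The effect was lower than in wild type males for 4 genes, beside 1.66% of all genes (2 genes of the list without wild type male control 1 and 5 without succinate library 1). Among the 4 were *Nr4a1* (-1.19) and *Egr1* (-1.83). *Jund* was the higher member, with a log2 fold change of 1.37 ± 0.51 (SE).

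Immunoglobulin variable genes, each used by a small number of plasma cell clones, had 7 higher and 29 lower of 164, with a median of -0.67, and 21 higher and 26 lower without succinate library 1. Of all genes 5.66% were higher and 2.09% lower, and without that library 5.60% and 5.37%. Genes high only under succinate reach the minimum for testing less easily, with succinate library 1 shallow or left out. The filter thus favours lower genes here too, and these counts cannot show a direction of the list. *Igkv13-84* had 582, 198 and 352 counts in the controls and 0, 10 and 0 under succinate, and *Igkv4-90* 39, 194 and 57 against 0, 4 and 7. In the opposite direction *Igkv1-133* had 65, 17 and 42 counts against 9, 143 and 1876, and *Ighv1-84* 0, 37 and 0 against 8, 339 and 1434. *Ighv9-4* rested mostly on control library 1, with 2482, 143 and 225 counts against 0, 26 and 22. Related variable genes may share reads, so single values are uncertain.

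Markers of tissues other than jejunum were mostly at low levels. The 11 tested heart and striated muscle genes summed to 30.9, 52.2 and 62.8 CPM in the controls and 294, 75.1 and 69.2 CPM under succinate, with 5 higher (2 without succinate library 1), beside 5.66% and 5.60% of all genes. The haemoglobins and other erythrocyte genes summed to 62.4, 86.7 and 79.6 CPM against 1010, 85.6 and 97.4 CPM, with 4 of the 5 tested higher and a median of 1.78, and none higher and a median of 0.27 without succinate library 1. Both sums were thus highest in succinate library 1.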

How the data were processed

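Distal jejunum RNA was extracted with TRIzol, poly(A)-selected and sequenced as stranded libraries. The authors trimmed reads with Cutadapt, aligned them to GRCm39 with HISAT2 and assembled and quantified transcripts with StringTie and gffcompare. The deposited count table holds whole-number gene counts, not normalized. The deposited FPKM table, from the authors, holds counts scaled by depth and length and supplied gene symbols, which matched by gene identifier. Counts of gene models that overlap on a strand or near-identical paralogs may be split between them.

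The main test was edgeR's quasi-likelihood test (edgeR 4.0.16, R 4.3.3) with TMM factors, on the 6 *Ptk6*-/- male libraries alone and no covariates, after dropping genes that did not reach 10 counts in 3 libraries. A call needed a Benjamini-Hochberg adjusted p under 0.05 and a fold of at least 2. Interactions with genotype (males) and sex (*Ptk6*-/-) used 12 libraries each. List counts use an unadjusted p under 0.05. Alternatives were DESeq2 1.42.0, its size factors, limma 3.58.1 with voom weights, limma on FPKM (pseudocount 1 before log2, minimum mean 0.5), no filter, a gene length offset, the replicate number as a block, a fit over all males, and each library left out in turn. Wild type male values were also refitted without wild type male control 1, added after seeing the data. The scripts were tested on simulated data in which 29.5% of 4-fold changes were recovered in the main comparison (18312 genes), 7.5% in the genotype interaction (19771 genes) and 0% in the sex interaction (19855 genes). Within each *Ptk6*-/- male group, no pair of libraries agreed within sampling noise.

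Genes named are *Ptk6* and genes the study names, the 12 in each direction with the smallest p and separate groups, up to 4 members per list, and the 6 in each direction for each interaction, clone names left out; other genes were named after their values were seen. Members, lists and this rule were chosen with earlier results of these data known, and values were computed for 62 lists, of which those with results here are given. Promoter sequences came from RefSeq (GRCm38.p6). For intervals and floors, 3 counts is the limit a count of 0 allows.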

Additional observations from a re-analysis of the deposited data

How the results depend on the processing

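In simulated counts of these libraries, 29.5% of 4-fold changes were recovered in the main comparison, so a gene that missed the threshold is not shown to be unchanged. The count of genes called in the *Ptk6*-/- males was 0 with edgeR, 39 with DESeq2 (19 higher and 20 lower), 16 with voom weights (1 higher, *AA467197*, and 15 lower), 6 with limma on FPKM, 2 without the filter and 1 in the fit over all males, and 0 to 2 when a library was left out. For the genotype interaction the counts were 0 with edgeR, 63 with DESeq2, 3 without the filter and 2 with voom, and 0 to 5 with a library left out, the 5 without wild type male control 1 being *Clec4g*, *S100a8*, *Gm47428*, *Marco* and *Ngp*. For the sex interaction they were 0 with edgeR, 175 with DESeq2, 12 without the filter and 32 with voom, and 0 to 15 with a library left out, 15 without *Ptk6*-/- female succinate 1 and 5 without *Ptk6*-/- male succinate 3. Why the tools differ was not tested. Without wild type male control 1, an alternative added after seeing the data, 1 gene was called in wild type males, against 0 with it. Same-numbered libraries did not deviate together (correlations of -0.107, -0.0813 and -0.07). These deviations were taken within small groups that include the outlying succinate library 1, so they cannot exclude a pairing. With the replicate block 0 genes were called in the *Ptk6*-/- males and in both interactions. At an unadjusted p under 0.05 the block gave 326 genes (132 higher and 194 lower), the length offset 1110 and leaving out a library 174 to 2191, against 1470 (1074 higher and 396 lower). The 174, without control library 1, were 74 higher and 100 lower.

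Of 694 recomputed log2 fold changes of 41 genes, 625 kept their direction and side of the threshold, 27 passed it in addition, 42 changed sign, and 29 genes never changed sign. *Mki67* was at -0.01 with voom and -0.53 on FPKM, and *Pcna* and *Frk* at 0.02 and 0.06 with voom. *Gsdmc3* was at 0.29 with voom. On FPKM *Gsdmc4*, *Gsdmc2*, *Irag2* and *Gsdmc* were at -0.37, -0.44, -0.28 and -0.09. The median over all 13711 genes of the FPKM fit was -0.448, beside -0.097 in the main fit. *Gsdmc4*, *Gsdmc2*, *Irag2* and *Gsdmc* lay above that median and *Mki67* below it. Sign changes on FPKM thus include a shift of all genes and cannot show a direction of single genes. FPKM summed highest in succinate library 1, and the part of this in the shift was not tested. With the length offset *Muc2* was at 0.12, *Mcm2* at 0.36, *Ptk6* at 0.16 and *Frk* at 0.06, and with the block added 0.12, 0.3, 0.05 and 0.04. With the replicate block alone *Irag2* was at -0.1 and *Gsdmc* at -0.24, and *Gsdmc* was at -0.21 with block and length. With a library left out the ranges were -0.32 to 0.51 for *Mki67*, -0.53 to 0.25 for *Gsdmc3*, -0.1 to 0.71 for *Gsdmc4*, -0.13 to 0.47 for *Gsdmc2*, -0.61 to 0.45 for *Irag2*, -0.62 to 0.71 for *Gsdmc*, -0.49 to 0.01 for *Pcna*, -0.23 to 0.2 for *Mcm2*, -0.67 to 0.34 for *Ptk6*, -0.41 to 0.62 for *Sucnr1* and -0.41 to 0.19 for *Frk*.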

Other observations

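Genes of lipid and nucleoside metabolism also held some members with separate groups. Of 22 genes of sterol synthesis and uptake 4 were higher at an unadjusted p under 0.05 and none lower (5 without succinate library 1), beside 5.66% and 5.60% higher of all genes, with a median log2 fold change of -0.15 (0.13 without that library). They were *Fdps* and *Mvd*, *Mvk* and *Cyp51*, enzymes of the mevalonate and lanosterol steps. *Fdps* had 38.4, 45.2 and 50 CPM in the controls and 104, 64.4 and 71.9 CPM under succinate, and *Cyp51* 66.9, 82.8 and 87.9 CPM against 116, 112 and 119 CPM. The uridine phosphorylase *Upp1* had 80.1, 124 and 159 CPM against 407, 198 and 178 CPM, with an effect of -0.64 in wild type males and -1.92 in *Ptk6*-/- females, and interactions of 1.73 and 2.99 at unadjusted p of 0.0026 and 0.00046. The basolateral bile acid exporter subunit *Slc51b* had 100, 154 and 170 CPM against 472, 236 and 197 CPM, while the ileal bile acid binding protein *Fabp6* had a log2 fold change of 2.39 that was 0.39 without succinate library 1.

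The EGF receptor family and its ligands, long transcripts, had 0 of 10 at an unadjusted p under 0.05 in edgeR and a median of -0.67, with 5 genes whose groups did not overlap, all lower (against 12.4% of all genes), and 3 lower at that p without succinate library 1 (against 5.37% of all genes). *Egfr* had 33.6, 35.3 and 40.5 CPM in the controls and 10.7, 29 and 24.6 CPM under succinate, and the ligand *Tgfa* 21.6, 25.5 and 26.8 against 11.9, 19.3 and 18.6 CPM. With a length offset the family's median was -0.40. Of 16 circadian clock genes 1 was lower (2 without succinate library 1), beside 2.09% and 5.37% lower of all genes in these fits. With all libraries it was *Per3*, with 3.32, 2.5 and 2.06 CPM against 1.16, 1.38 and 1.56 CPM. Sampling times were not given in the sources used here.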
